A study of Mus musculus with 15 samples.

Results

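The 9 RNA libraries of cultured splenic lymphocytes from Eμ-TCL1;p53R172H/+ mice were compared in 2 classes, chosen by the measured level of Btk, the kinase of the B-cell receptor that ibrutinib inhibits. The 3 libraries with Btk under 10, vehicle replicates 1 and 2 and ibrutinib replicate 1, are called Btk-low, and the other 6, replicates 3, 4 and 5 in vehicle and in ibrutinib, are called Btk-high. The series holds 15 libraries in all, and the remaining 6 are from Eμ-TCL1 mice and are used as a reference. Btk-low libraries had Btk values of 3.6, 4.2 and 1.4. The highest Btk-low value, 4.2, and the lowest Btk-high value, 22.3 in ibrutinib replicate 3, are the values nearest to the threshold on either side, with no library between them. Since a measured value selected the libraries, differences between the classes are given as descriptions and no p-value is attached to them.

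Both genotypes were C57Bl/6 mice with leukemic spleens that expressed the TCL1 oncogene from the Eμ enhancer, which is active in lymphocytes of the B lineage, and Eμ-TCL1;p53R172H/+ mice carried 1 R172H allele of Trp53 in addition. Spleens were disrupted mechanically, and the study's methods call the isolated cells malignant B-cells and name no sort. The cells were cultured for 24 h with DMSO vehicle or 5 μM ibrutinib. The age of the mice was not given in the sources used here, and neither was a link between a replicate number and a mouse. Values are normalized, depth-scaled read counts (CPM), given in 1 table per treatment that was scaled by itself, so that levels are compared only within a table. Differences are log2(value + 1) in Btk-low minus Btk-high libraries with the table as a covariate. The pseudocount of 1 makes them smaller for genes with low values. The Btk-low class is 2 libraries in vehicle and 1 in ibrutinib.

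T-cells read antigen through a receptor of variable α and β chains held by the CD3 proteins, whose signal passes through the kinases Lck and Zap70. B-cells read it through a surface immunoglobulin held by CD79 proteins, whose signal passes through Lyn, Syk and Btk. Each lymphocyte joins 1 V gene to downstream segments when it builds a receptor chain, so a population grown from 1 cell carries the same V gene in every cell. In chronic lymphocytic leukemia and in the Eμ-TCL1 model the expanded cell is a CD5-positive B-cell. In bulk RNA, fewer cells of a type and less RNA per cell cannot be told apart.

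The V genes that took the largest share of receptor RNA are shown first, because they distinguish the libraries independently of scaling. Each sequence is the last 150 bases of the coding V segment in GENCODE M21 on GRCm38, 5′ to 3′, and capitals mark its last in-frame cysteine codon, the conserved residue at which the junction with the downstream segments begins.
Trbv17: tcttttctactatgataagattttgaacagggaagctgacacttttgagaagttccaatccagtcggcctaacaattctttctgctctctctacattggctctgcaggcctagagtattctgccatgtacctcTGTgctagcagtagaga
Trbv5: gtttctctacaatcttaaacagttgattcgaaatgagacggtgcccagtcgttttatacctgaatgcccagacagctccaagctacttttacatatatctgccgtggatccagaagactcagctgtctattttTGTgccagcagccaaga
Ighv11-2: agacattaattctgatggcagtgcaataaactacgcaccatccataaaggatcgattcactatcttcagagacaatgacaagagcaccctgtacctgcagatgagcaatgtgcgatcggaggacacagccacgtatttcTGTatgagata
Ighv6-3: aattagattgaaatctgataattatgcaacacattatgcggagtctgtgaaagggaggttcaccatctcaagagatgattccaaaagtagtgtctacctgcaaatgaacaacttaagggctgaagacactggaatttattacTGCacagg
Ighv12-3: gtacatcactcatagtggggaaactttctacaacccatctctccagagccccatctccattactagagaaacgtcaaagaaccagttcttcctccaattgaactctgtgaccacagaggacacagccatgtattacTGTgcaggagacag
Ighv1-52: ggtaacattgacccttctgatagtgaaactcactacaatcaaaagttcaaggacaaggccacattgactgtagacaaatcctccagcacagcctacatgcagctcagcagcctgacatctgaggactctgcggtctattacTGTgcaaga
Trbv17 is a V gene of the T-cell receptor β locus, and the bases shown lie at chr6:41163407-41163556 on the plus strand. Trbv5, from the same locus, lies at chr6:41062654-41062803 on the plus strand. The immunoglobulin heavy-chain genes are on the minus strand, with Ighv11-2 at chr12:114048241-114048390, Ighv6-3 at chr12:114391712-114391861, Ighv12-3 at chr12:114366521-114366670 and Ighv1-52 at chr12:115145487-115145636. The longest run of bases that this part of Trbv17 shares with another Trbv transcript is 14, in Trbv29. The longest run for Ighv1-52 is 140 bases, in Ighv1-61, so reads of these 2 genes may have been shared. For Ighv11-2, Ighv6-3 and Ighv12-3 the longest shared runs were 62, 70 and 27 bases.

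Trbv17 took 85.8% of the summed value of all listed Trbv genes in vehicle replicate 1, 84.7% in vehicle replicate 2 and 84.4% in ibrutinib replicate 1. The summed Trbv values behind these shares were 434.2, 447.5 and 291.2. Trbv5 was second in each of the 3 Btk-low libraries, with 11.9%, 12.9% and 12.9%. All 3 Btk-low libraries therefore had the same pair of leading β-chain V genes in nearly the same proportion. In Btk-high libraries in vehicle the summed Trbv value was 16.2, 14.6 and 18.9, and Trbv17 itself was 0.8, 4.0 and 1.1. In ibrutinib the sum was 120.9, 52.4 and 87.6 in Btk-high replicates 3, 4 and 5, with Trbv17 at 25.4, 8.7 and 3.3. Trbv17 led the Btk-high libraries of ibrutinib replicates 3 and 4 with 21.0% and 16.6% of the sum, and Trbv13-2 led replicate 5 with 12.3%. It was Trbv17 as well that led Btk-high vehicle replicate 4, with 27.4% of 14.6. The same gene led Eμ-TCL1 replicate 3, with 24.5% of 10.6 in vehicle and 22.7% of 7.5 in ibrutinib. Among Trav genes, the α-chain counterpart, Trav9-4 or Trav12-3 led the Btk-low libraries with 41.0%, 30.1% and 45.5% of summed values of 42.2, 44.5 and 25.3. Shares are over the genes that each table lists, 9 Trav genes in vehicle but 34 in ibrutinib. For Trbv these numbers were 19 and 20, for Ighv 58 and 64 and for Igkv 65 and 70.

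The β-chain locus has 2 clusters of J segments, each upstream of its own constant gene. Trbj1 genes summed to 111.5, 75.7 and 73 in the Btk-low libraries and Trbj2 genes to 10.9, 6.8 and 7.6. Trbc1, the constant gene after the first cluster, was 77.9%, 78.7% and 74.9% of Trbc1 plus Trbc2 in the same libraries. In the 6 Btk-high libraries that share lay between 23.9% and 42.1%, with no overlap. It was between 17.6% and 30.4% in the 6 Eμ-TCL1 libraries.

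The smaller amount of immunoglobulin RNA in the Btk-low libraries also had 1 leading pair of V genes. Ighv11-2 was 71.6%, 67.2% and 59.4% of summed Ighv values of 36.6, 40.3 and 20.2, and Igkv14-126 was 77.6%, 75.3% and 62.3% of summed Igkv values of 51.8, 74.1 and 26.8. By level, Ighv11-2 was 26.2 and 27.1 against at most 6.3 in Btk-high libraries in vehicle, and Igkv14-126 was 40.2 and 55.8 against at most 12.4. In ibrutinib the 2 genes were 12 and 16.7 in the Btk-low library but 14.1 and 30.2 in Btk-high replicate 4. Their lead in ibrutinib is thus one of share and not of level. The Btk-high libraries had other leading genes. Ighv6-3 with Igkv12-46 led vehicle replicates 3 and 5 and ibrutinib replicate 5, with Ighv6-3 at 93.8%, 94.9% and 78.2% of its locus. Ighv12-3 with Igkv4-91 led vehicle replicate 4 and ibrutinib replicate 4, with Ighv12-3 at 94.9% and 83.0%. Ibrutinib replicate 3 was led by Ighv1-52 with 69.7% and by Igkv19-93 with 63.6%, unlike vehicle replicate 3. The 9 libraries thus fell into 4 patterns of leading heavy- and light-chain V genes, of which the Btk-low class held 1 and the Btk-high class 3. Whether libraries with the same pattern came from the same mouse was not tested, and the libraries of a class may not be independent mice.

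**Figure D1:**
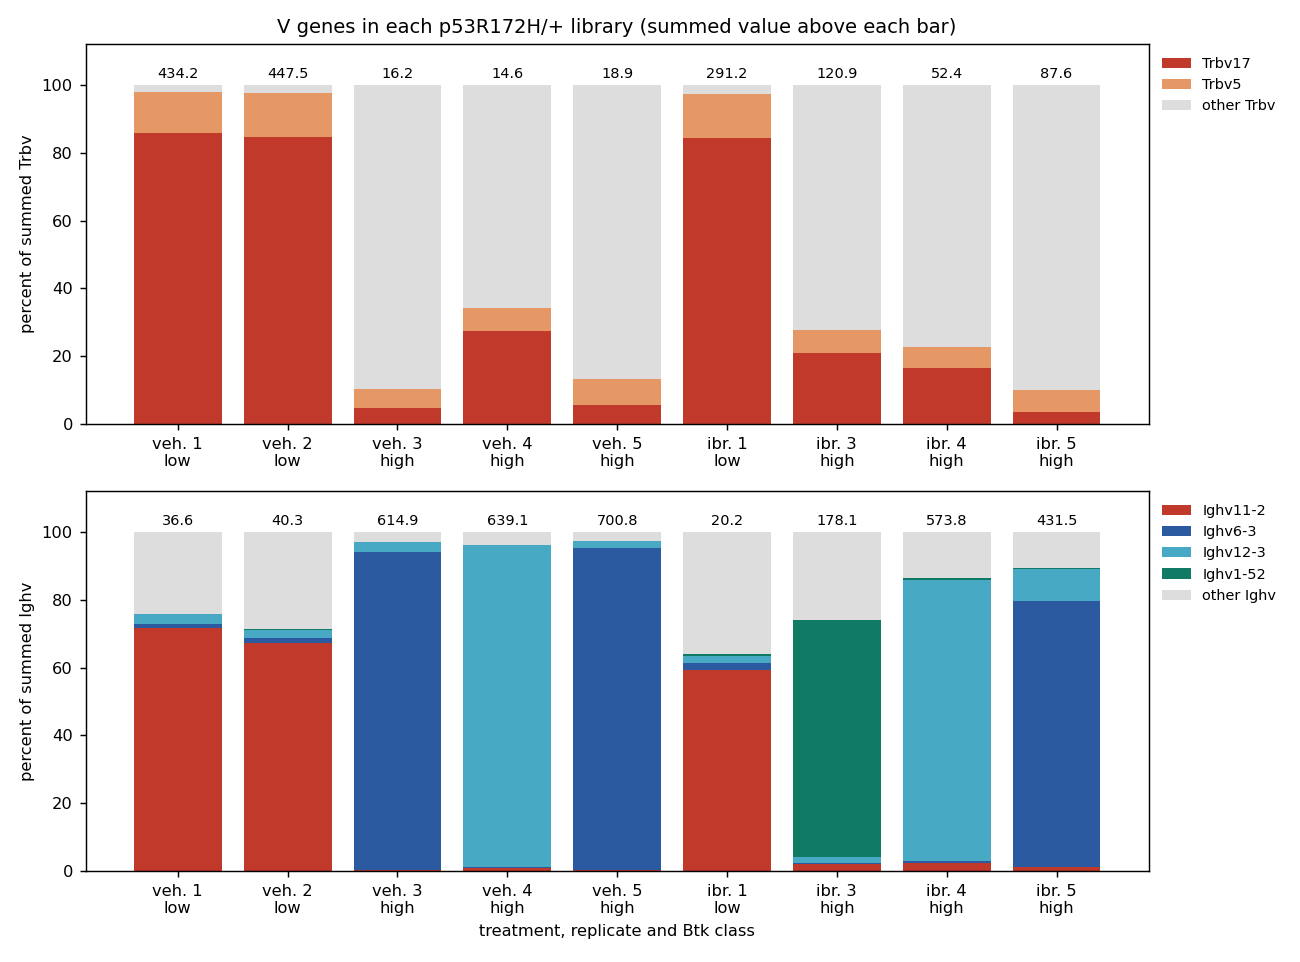
Share (percent) of the summed value of Trbv genes (top) and Ighv genes (bottom) taken by the named V genes in each of the 9 Eμ-TCL1;p53R172H/+ libraries, labelled by treatment (veh., vehicle; ibr., ibrutinib), replicate and Btk class, with the summed value above each bar. Trbv17 takes between 84.4% and 85.8% in the 3 Btk-low libraries and Ighv11-2 between 59.4% and 71.6%, while the 6 Btk-high libraries are led by Ighv6-3, Ighv12-3 or Ighv1-52.

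Other facts of the libraries bear on the comparison. Column sums ranged from 756625 to 1243999 in Btk-low and from 817320 to 1359650 in Btk-high libraries. In ibrutinib the 10 leading genes took 18.1% of the sum in the Btk-low library, against 31.8%, 53.2% and 57.1% in Btk-high libraries. In vehicle they took 15.5% and 30.0% against 18.5%, 16.4% and 23.4%, with overlap. How this composition acts on the differences in ibrutinib was not tested. The values carry no read totals, so depth is not known and intervals for counting error cannot be set. Xist, expressed from the inactive X chromosome of females, was between 837.6 and 1491.3 in vehicle replicates 3 and 5 and ibrutinib replicate 5 and at most 1.2 in the other 6, which had the Y-linked gene Ddx3y between 75.1 and 177.3. All 3 Btk-low libraries were among these 6, and vehicle replicate 3 and ibrutinib replicate 3 were on opposite sides. Trp53 was between 52.1 and 58.3 in Btk-low and between 54.8 and 67 in Btk-high libraries in vehicle, and 37.3 against 31.8 to 39.5 in ibrutinib. These values do not separate the Trp53 alleles, and the part of each allele was not tested.

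Btk (chromosome X, 134542336 to 134583570 on GRCm38) was 3.6 and 4.2 in Btk-low libraries in vehicle against 77.8, 67.3 and 83.2 in Btk-high libraries. In ibrutinib it was 1.4 against 22.3, 44 and 31.3. These are the values that chose the classes. Cd79a (chromosome 7, 24897381 to 24902197), a signaling subunit of the B-cell receptor, was 12.8 and 13.2 against 262.6, 300.3 and 380.1 in vehicle. In ibrutinib Cd79a was 4.6 against 81.1, 193.7 and 174.2. The classes did not overlap in Cd79a in either table, and its log2 difference was -4.54 with a pooled SD of 0.46 within classes and tables (5 degrees of freedom).

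The T-cell markers went the other way. Lck (chromosome 4, 129548344 to 129573641), the kinase that starts T-cell receptor signaling, was 643.5 and 708.4 against 108.5, 97.8 and 116.4 in vehicle and 412.4 against 178, 97.4 and 132.5 in ibrutinib. Tcf7 (chromosome 11, 52252371 to 52283014), a transcription factor of T-cells, was 588.9 and 912 against 46.1, 56.1 and 70.7 in vehicle and 497.6 against 436.7, 200.8 and 254.8 in ibrutinib. Neither gene overlapped between classes, but the Tcf7 value of ibrutinib replicate 3 came close to that of the Btk-low library. Cd3e (chromosome 9, 44998740 to 45009627), a CD3 subunit, was 113.5 and 282.9 against 6, 8.2 and 9.3 in vehicle, with no overlap. In ibrutinib Cd3e was 82 in the Btk-low library against 96, 42.2 and 34.5, so Btk-high replicate 3 lay above it.

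The names T-cell-rich and B-cell-rich therefore hold without exception in vehicle and not in ibrutinib. Summed Cd3d, Cd3e and Cd3g exceeded summed Cd79a and Cd79b in the 3 Btk-low libraries, with 643.4 against 72, 858.1 against 64.7 and 435.3 against 22.2. They did so in ibrutinib replicate 3 as well, with 266.5 against 215.3, although its Btk value puts it in the Btk-high class. In the other Btk-high libraries Cd79 exceeded Cd3, by 541.5 against 126.3 and 507.5 against 152.3 in ibrutinib replicates 4 and 5 and by at least 904.3 against at most 33 in vehicle. The classes are accordingly called Btk-low and Btk-high below.

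**Figure D2:**
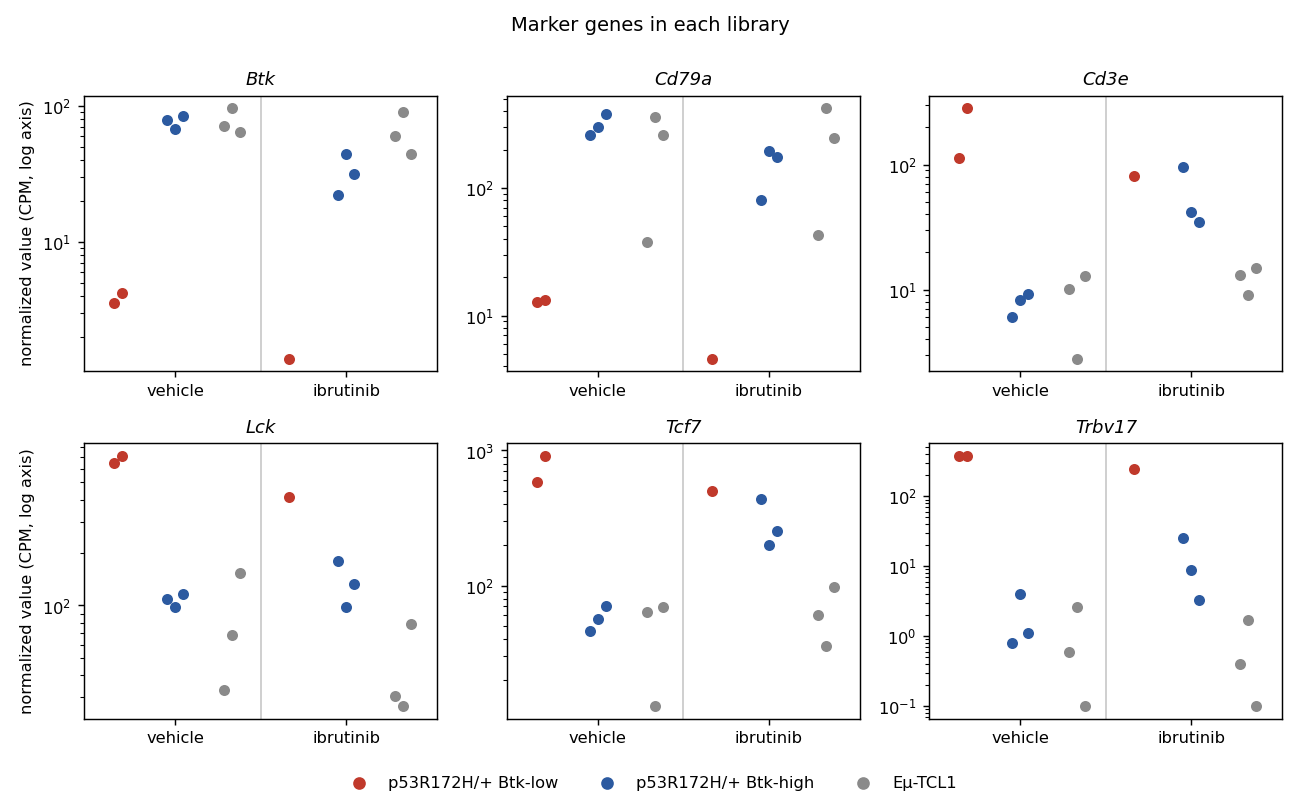
Normalized values (CPM, log axis) of the 6 markers in all 15 libraries, 1 point per library, with vehicle left and ibrutinib right of the line in each panel and the groups in color. The Btk-low points lie apart from the Btk-high points in all panels except for Cd3e in ibrutinib, where 82 in the Btk-low library is below 96 in Btk-high replicate 3.

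Over the 15869 genes in both tables, a gene was called when every Btk-low library lay on 1 side of every Btk-high library in each table and the log2 difference was at least 1. By this rule 1447 genes (9.12% of all genes) were higher and 1414 (8.91%) lower in Btk-low libraries. The difference was at least 3 for 213 of the higher and 255 of the lower genes, while the median over all genes was -0.03. In the vehicle table alone 13.0% of genes were higher and 11.8% lower, and in the ibrutinib table alone, with 1 Btk-low library, 5.56% were higher and 9.80% lower. The genes called higher had a median difference of 2.17 in vehicle and 1.08 in ibrutinib, and those called lower -1.90 and -1.60. The counts without ibrutinib replicate 3 were 1611 higher and 1548 lower.

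Libraries of the Btk-low class resembled each other. Across the genes with a mean of at least 10, the SD of the log2 ratio was 0.46 between vehicle replicates 1 and 2, against 0.83 to 1.59 between Btk-low and Btk-high libraries of the same table. Between ibrutinib replicate 1 and the Btk-low vehicle libraries it was 0.33 and 0.53, although these are in different tables. Between Btk-high libraries it was 0.47 to 0.80 in the same table and 0.90 to 1.28 across tables. Between Btk-low vehicle and Btk-high ibrutinib libraries it was 0.82 to 1.12, which overlaps that range. Btk-high ibrutinib replicate 3 had 0.82 and 0.85 against the Btk-low vehicle libraries. Against Btk-high vehicle replicates 3, 4 and 5 it had 1.22, 1.15 and 1.28.

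**Figure D3:**
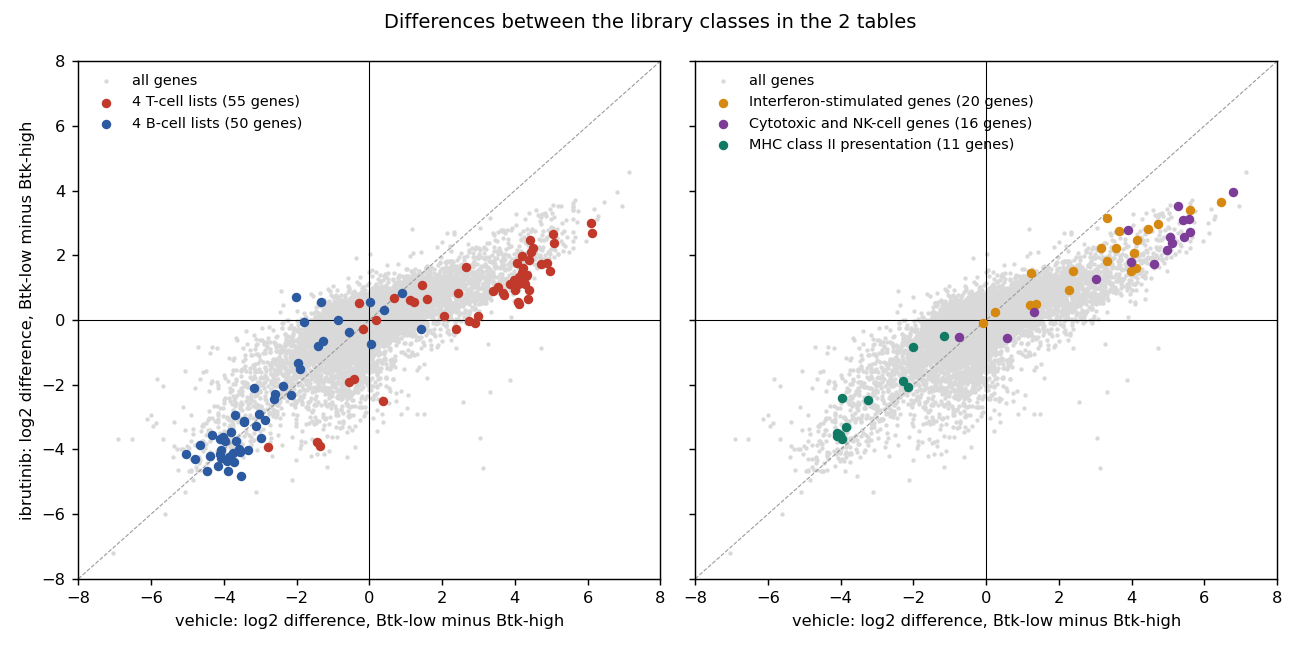
Log2 difference of each gene between Btk-low and Btk-high libraries in vehicle (horizontal) and in ibrutinib (vertical), with gray points for all genes, colored points for gene lists, and a dashed line of equal differences. The T-cell lists have a median of 4.0 in vehicle and 1.01 in ibrutinib, while the B-cell lists have medians of -3.44 and -3.36.

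Genes of the T-cell receptor and its signaling were higher in the Btk-low libraries. Of the 8 genes of the receptor complex 5 were called higher and none lower (median log2 difference 3.04), and of 17 signaling genes 13 were higher and none lower (3.05). Trbc1, Cd3g, Cd3d, Cd247 and Trac were called, with differences of 4.14, 3.56, 3.20, 3.15 and 2.71. Cd3e and Trbc2 were not called because they overlapped in ibrutinib, and Trat1, an adaptor of the receptor, had values of at most 0.3 in Btk-low libraries. Among signaling genes Txk, a kinase of the Tec family, had the largest difference (4.03), followed by Themis (3.64), Ubash3a (3.54), Prkcq (3.41) and Sla2 (3.35). Vav1, which acts in both B- and T-cells, had a difference of 0.01 and Rasgrp1 of 0.69. Across the 4 T-cell lists, 37 of 55 genes were called higher and 4 lower, against 9.12% and 8.91% of all genes. The median difference of the listed genes was 4.0 in vehicle but 1.01 in ibrutinib, where the T-cell genes were also present in Btk-high libraries.

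The 4 genes of the T-cell lists that were lower were Cd4, Zbtb7b, Foxp3 and Cd226. Cd4, the coreceptor of helper T-cells, was 2 and 4.4 in Btk-low against 10.1, 6.9 and 11.7 in Btk-high libraries in vehicle, and 1.5 against 38.7, 27.3 and 43.7 in ibrutinib. Zbtb7b, the factor that sets the CD4 fate, was 3.6 and 5.7 against 28.7, 44 and 40.9 in vehicle. In ibrutinib Zbtb7b was 1.7 against 34.9, 53.1 and 35.6, and it lay between 60.3 and 111.9 in the Eμ-TCL1 libraries. The Btk-high libraries in vehicle held these Zbtb7b values with summed Cd3 genes of at most 33. Which cells carried Zbtb7b was not tested, so its difference is not read as one between T-cell subsets. Foxp3, which defines regulatory T-cells, was at most 0.2 in Btk-low libraries and between 0.4 and 4.3 in Btk-high libraries, and Cd226, an activating receptor of T- and NK-cells, was at most 0.8 against 2.2 to 21. Cd8a, the coreceptor of cytotoxic T-cells, was 266.2 and 298.1 against 15.4, 15.4 and 16.4 in vehicle and 134.9 against 96.6, 49.3 and 50.3 in ibrutinib. Cd8b1, its partner chain, had a difference of 2.93 and Cd8a of 2.94. In Btk-high libraries in ibrutinib Cd4 and Cd8a were both present, whereas the Btk-low libraries had Cd8a and little Cd4. Thy1 (3.69), Cd27 (3.61), Cd7 (3.16) and Ly6c2 (4.89) were also called higher among the coreceptors and accessory receptors, of which 12 of 16 were higher and 2 lower.

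Of 15 transcription factors of T-cells 8 were called higher and 2 lower (median 2.57). Eomes, a factor of cytotoxic and memory T-cells, was 297.3 and 377.5 against 3.7, 5 and 3 in vehicle and 139.7 against 48.6, 19 and 9.3 in ibrutinib. Tbx21, which drives type 1 responses, differed by 3.67, Bcl11b by 3.16 and Satb1 by 3.06. Lef1, Ikzf2 and Tox were higher in Btk-low libraries in vehicle but overlapped in ibrutinib, where they were 214.8, 26.6 and 13.7 against up to 277.1, 45.2 and 16.4.

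Genes of naive and circulating T-cells were called higher for 10 of 15 and lower for 1, Dapl1. Ms4a4b (4.19), Ms4a6b (4.19) and Gimap7 (3.57) were among the leading genes of the list. Il7r, the receptor for interleukin 7, changed order between the tables, with 155.4 and 143.4 against 70, 54.1 and 30.6 in vehicle and 146.9 against 789.9, 376.4 and 445.3 in ibrutinib. Of 16 genes of early thymocytes 3 were higher, Notch1, Cd1d1 and Dntt, and 6 were lower. These shares, 18.8% and 37.5%, compare with 9.12% and 8.91% of all genes. Notch1 was 246.7 and 220.2 against 78, 70.4 and 110.4 in vehicle and 192.2 against 169.8, 112.2 and 105.1 in ibrutinib. Rag1 and Rag2, the recombinase of developing lymphocytes, were at most 0.1 in the Btk-low libraries, Kit at most 0.7 and Dntt, the terminal transferase, at most 3.1. Dtx1, Lyl1, Hhex, Lmo2, Hes1 and Kit, genes of progenitors that B-cells also use in part, were the 6 that were lower.

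Genes of activated and regulatory T-cells were mostly not called, with 1 higher and 3 lower of 15. That is 6.67% and 20%, against 9.12% and 8.91% of all genes. The tables differed, with a list median of 0.04 in vehicle and -1.42 in ibrutinib, where 1 library is Btk-low. Over all genes the medians were -0.02 and 0.02. Pdcd1, the inhibitory receptor PD-1, was 1.2 and 1.1 against 69.8, 27.2 and 54.1 in vehicle and 0.4 against 14.2, 9.9 and 11.4 in ibrutinib. Its difference of -3.98 was the largest in the list. Pdcd1 too was present in the Btk-high libraries in vehicle, where summed Cd3 genes were at most 33, and which cells carried it was not tested. Havcr2 and Lag3 were at most 0.6 in Btk-low libraries. Tnfrsf18 was the 1 gene called higher, with 33.2 and 34.5 against 3.7, 8.4 and 4.4 in vehicle and 23.9 against 12.3, 8.8 and 8.8 in ibrutinib.

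**Figure D4:**
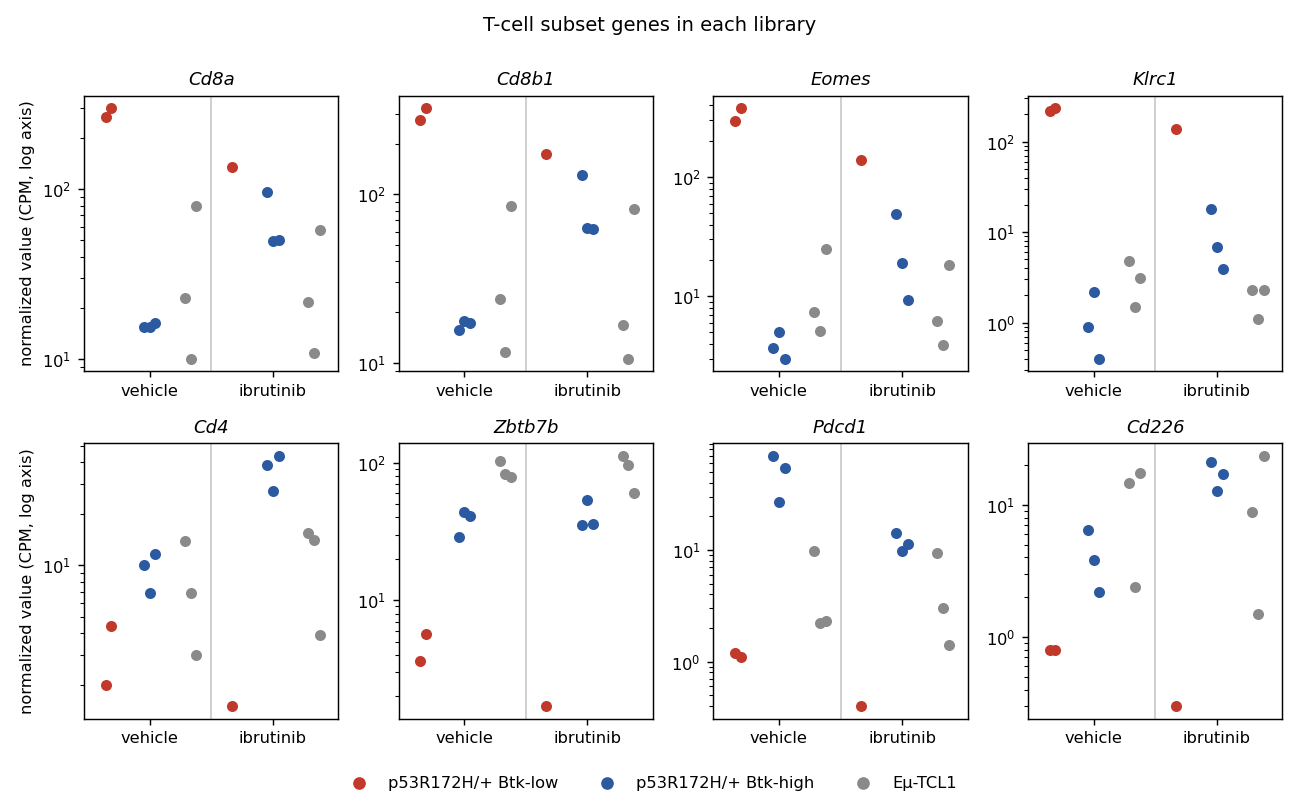
Normalized values (CPM, log axis) of 8 genes listed for T-cell subsets in all 15 libraries, 1 point per library, with vehicle left and ibrutinib right of the line. Which cells carried each gene was not tested. Cd8a, Cd8b1, Eomes and Klrc1 are higher and Cd4, Zbtb7b, Pdcd1 and Cd226 are lower in the Btk-low libraries than in every Btk-high library of the same table.

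Cytotoxic and natural killer (NK) cell genes had the highest list median, 3.97, with 13 of 16 called higher and none lower. Klrc1, which encodes the inhibitory receptor NKG2A, was 218.6 and 232.9 against 0.9, 2.2 and 0.4 in vehicle and 137.7 against 17.8, 6.9 and 3.9 in ibrutinib, and its difference of 5.70 was the largest among the genes called higher that were named outside the receptor segments. Klra8 (4.63), Klre1 (4.52) and Klrd1 (3.50), further receptors of the same gene complex, followed. The lytic genes Prf1, Gzmb and Nkg7 differed by 4.06, 4.10 and 4.59, the chemokine Ccl5 by 4.33 and Il2rb, a subunit of the receptors for interleukins 2 and 15, by 4.49. The defining markers of NK cells did not follow them. Ncr1 was 0 in each Btk-low library and at most 0.9 elsewhere among the 9, and Klrb1c was at most 2.1 in Btk-low and at most 2.7 in Btk-high libraries. Gzma was 5.1 and 6.4 against at most 2.1 in vehicle and 1.2 against at most 1.1 in ibrutinib.

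Transcripts of the γ-chain locus were called higher as well. Tcrg-C2 was 31.2 and 39.1 against at most 0.2 in vehicle and 14.5 against at most 1.2 in ibrutinib, and Tcrg-C1, Tcrg-C4 and Tcrg-V1 differed by 3.70, 3.33 and 2.19. Cd163l1, a scavenger receptor of γδ T-cells, was 38.1 and 44.6 against at most 1.8 in vehicle and 15.1 against at most 2.5 in ibrutinib. Trdc, the δ-chain constant gene, was sought but is listed in neither table under that name, so its level is not known. Sox13, a factor of γδ T-cells, was 0 in the Btk-low libraries. Blk, on the same list because some γδ T-cells use it, is a kinase of B-cells and was lower.

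B-cell genes were lower in the Btk-low libraries, and the median difference over the 4 B-cell lists was -3.44 in vehicle and -3.36 in ibrutinib. The receptor complex differed by -3.67 in vehicle and -4.50 in ibrutinib. All 5 genes of the B-cell receptor complex that both tables list were called lower, with a median of -4.04. Ighm, the μ heavy chain, was 471.9 and 538.8 against 4008.4, 3540.9 and 4368.8 in vehicle and 266 against 3079.7, 3509.8 and 3494.2 in ibrutinib, and Iglc2 and Cd79b differed by -4.29 and -3.70. Of 15 signaling genes 10 were lower and none higher (median -2.96), among them Plcg2 (-4.31), Blk (-4.06), Lyn (-4.0) and Syk (-3.89). Inpp5d, Dapp1, Vav3, Ptpn6 and Pik3ap1 were not called. Of 16 coreceptors and surface receptors 14 were lower (median -3.54), with Cd180 at -4.59, Siglecg at -4.35, Cd24a at -4.18 and Ms4a1, the CD20 gene, at -4.09. Fcgr2b, the inhibitory Fc receptor, was not called and was 245.2 and 287 against 92.4, 322.2 and 94.7 in vehicle.

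Of 15 B-cell transcription factors 11 were lower (median -3.32). Spib, an Ets factor of B-cells, had the largest difference (-4.70), and Ebf1 (-4.13), Pax5 (-3.95), Mef2c (-3.86) and Tcf4 (-3.75) followed. Pax5, which holds the B-cell fate, was 6.5 and 7.6 against 135.8, 124.9 and 154.9 in vehicle and 1.9 against 18.7, 43 and 58.2 in ibrutinib. Foxo1, Ikzf3, Bach2 and Tcf3, which T-cells use as well, were not called. Of 11 genes of MHC class II presentation 10 were lower (median -3.37, with -3.87 in vehicle and -2.47 in ibrutinib), among them the invariant chain Cd74 (-3.91), the transactivator Ciita (-3.85) and the chain genes H2-Eb1, H2-Ab1 and H2-Aa (-3.87, -3.84 and -3.65). Over the 4 B-cell lists, 39 of 50 genes were lower and none higher.

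Surface markers of B-1 cells and of the leukemia were split. Bhlhe41, a factor of B-1 cells, was 13.7 and 15.4 against 362.3, 253.9 and 506 in vehicle and 4.8 against 64.7, 153.8 and 308.6 in ibrutinib, and Cd9 and Cd200 differed by -3.92 and -3.55. In all, 8 of 12 were lower (66.7%) and 2 higher (16.7%), against 8.91% and 9.12% of all genes. The 2 that were higher, Cd5 and Spn (CD43), are expressed by T-cells too. Cd5, the surface antigen that marks chronic lymphocytic leukemia, was 104.9 and 132.3 against 57, 23.9 and 57.3 in vehicle and 54.9 against 30.3, 19.2 and 29 in ibrutinib.

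**Figure D5:**
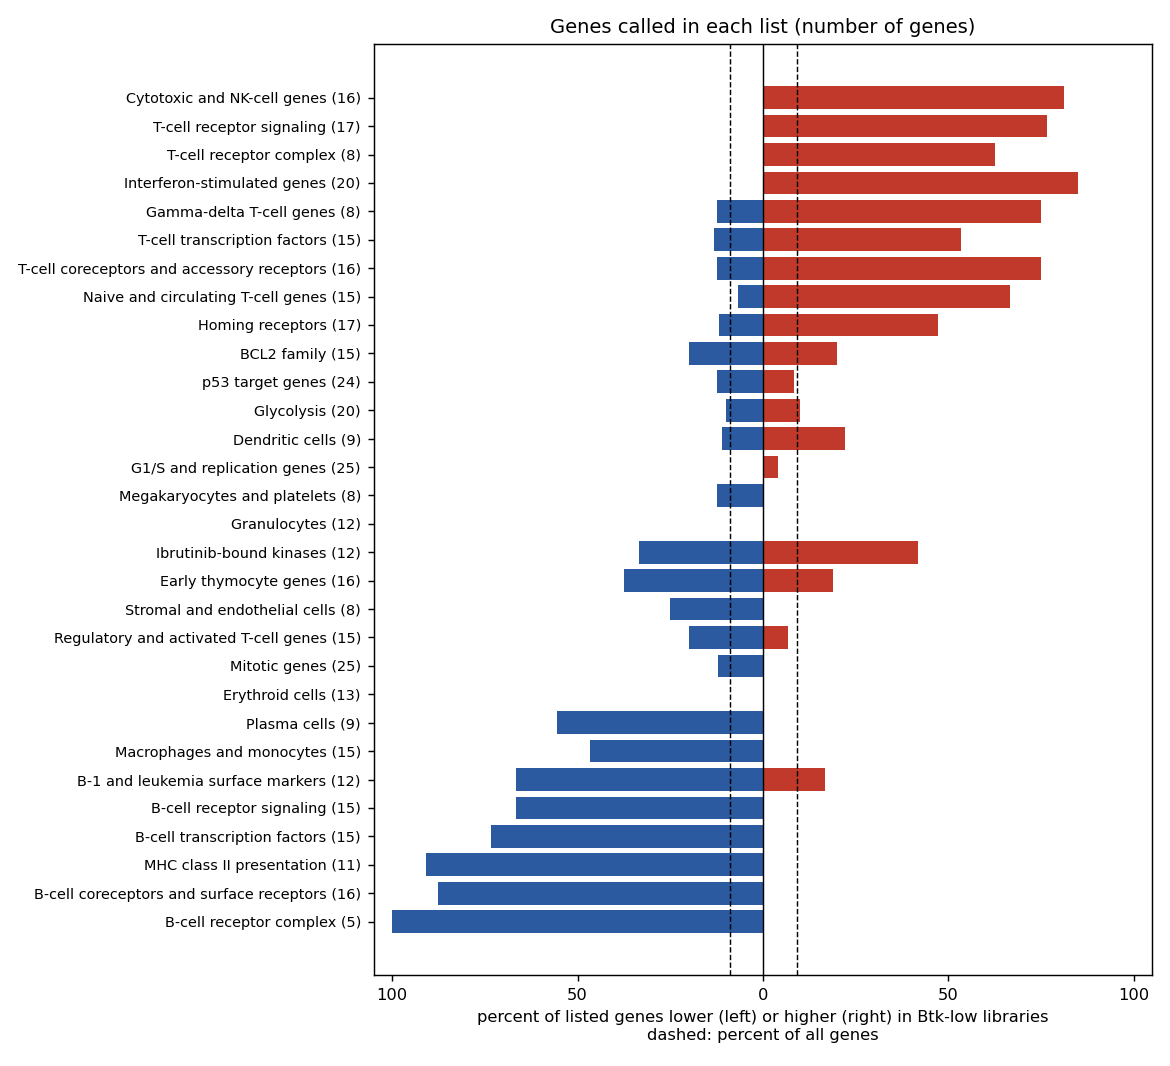
Percent of the genes of each list called lower (left, blue) or higher (right, red) in Btk-low libraries, with the number of listed genes in parentheses and dashed lines at the percent of all genes called (8.91 lower, 9.12 higher). Interferon-stimulated, cytotoxic and T-cell receptor lists extend to the right, with 85% of interferon-stimulated genes called higher, and B-cell lists to the left.

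Interferon-stimulated genes were higher in Btk-low libraries for 17 of 20 genes and lower for none, with a median difference of 3.04. These genes are switched on when interferon receptors activate STAT and IRF factors, some of which bind a repeated GAAA element in their promoters. The promoters of Ifit3 and Ifit1, RNA-binding antiviral proteins, are shown as examples from RefSeq (GRCm38.p6), from 250 bases before to 50 bases after the gene start, with capitals for each pair of GAAA runs that are separated by any 2 bases (GAAA, NN, GAAA, searched on both strands, so that the other strand reads as TTTC runs).
Ifit3: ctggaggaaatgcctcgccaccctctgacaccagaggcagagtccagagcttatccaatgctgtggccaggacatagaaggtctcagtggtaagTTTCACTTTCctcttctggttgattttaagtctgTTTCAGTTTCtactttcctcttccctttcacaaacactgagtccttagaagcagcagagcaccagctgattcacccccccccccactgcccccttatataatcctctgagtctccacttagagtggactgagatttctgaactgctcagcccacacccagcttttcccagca
Ifit1: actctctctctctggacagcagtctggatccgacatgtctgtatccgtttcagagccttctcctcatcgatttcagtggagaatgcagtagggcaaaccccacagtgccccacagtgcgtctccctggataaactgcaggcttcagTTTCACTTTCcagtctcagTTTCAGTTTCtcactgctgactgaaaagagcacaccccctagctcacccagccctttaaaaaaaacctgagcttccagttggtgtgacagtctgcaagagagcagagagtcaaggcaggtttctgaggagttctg
The first lies at chr19:34583279-34583578 and the second at chr19:34640639-34640938, both on the plus strand. Each holds 2 matches, starting 156 and 122 bases before the Ifit3 start and 104 and 85 bases before the Ifit1 start. Of the 13 listed genes with a promoter in the table, 8 (61.5%) held this match in at least 1 promoter, against 3.99% of all 27025 genes in the table. The list was chosen as interferon-stimulated genes, so this share follows from the choice and says nothing about the difference between the classes. A match is a description of the sequence and no evidence that a factor bound it.

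Ifit3 was 170 and 234.2 in Btk-low libraries against 1.5, 1.3 and 1.1 in Btk-high libraries in vehicle, and 95.6 against 14.6, 5.8 and 3.3 in ibrutinib. Ifit1 was 38.5 and 68.1 against 2.8, 1.9 and 1.8 in vehicle and 14.3 against 4.5, 2.1 and 1.9 in ibrutinib. Neither gene overlapped between classes. Rtp4 (4.76), Irf7 (4.05), a factor that amplifies the interferon response, Oas3 (3.83) and Zbp1 (3.51), a sensor of nucleic acids, were next. Stat2, Mx2 and Ifi44 were not called. In the 6 Eμ-TCL1 libraries Ifit3 was between 2.7 and 18 and Irf7 between 1.5 and 16.9, so Ifit3 and Irf7 were highest in the 3 Btk-low libraries of the series, within each table.

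The kinases that ibrutinib can bind differed in both directions, with 5 of 12 higher (41.7%) and 4 lower (33.3%). Over all genes these shares were 9.12% and 8.91%. Txk was 266.4 and 319.3 against 8.3, 9.4 and 5.9 in vehicle and 172.8 against 56.1, 27.2 and 22.8 in ibrutinib. Yes1, Lck and Jak3 were among those higher, with differences of 2.27, 2.26 and 1.27, and Blk, Btk and Fgr among those lower, with -4.06, -3.89 and -2.07. Tec itself was not called (-0.56). Btk is the gene that chose the classes, so its place among the 4 lower kinases was fixed by the choice.

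Among 15 BCL2-family genes, which set the threshold for apoptosis, 3 were higher and 3 lower (20% each way, against 9.12% and 8.91% of all genes). Bcl2 was 865.7 and 737.7 against 106.4, 99.6 and 81.9 in vehicle and 523.6 against 98, 74 and 50.1 in ibrutinib, a difference of 2.98 that was nearly equal in the 2 tables (3.05 and 2.86). Bcl2l11, the proapoptotic BIM gene, and Bcl2l1 were higher by 1.71 and 1.54, and Bmf, Bcl2a1b and Bid were lower, with -3.17, -2.36 and -1.01. Of 24 p53 target genes 2 were higher (8.33%), Ddb2 (1.59) and Xpc (1.54), and 3 were lower (12.5%), shares close to the 9.12% and 8.91% of all genes. Plk2 was 3.3 and 2.5 against 146.1, 94.3 and 152.4 in vehicle and 1.3 against 4.2, 41.8 and 64.5 in ibrutinib. Cdkn1a, the p21 gene, was 1.2 and 1.2 against 3.9, 14.8 and 7.9 in vehicle and 0.6 against 5.7, 15 and 3.5 in ibrutinib, and Sesn2 differed by -2.39. Bax, Mdm2 and Ccng1 had differences of -0.28, -0.32 and 0.36 and were not called.

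Against 9.12% and 8.91% of all genes, homing receptors were higher for 8 of 17 (47.1%) and lower for 2 (11.8%, close to the share of all genes). Cxcr3 (3.77) and Ccr2 (3.33), receptors of effector T-cells, were among those higher, while S1pr3 (-4.95) and Itga4 (-3.26), an integrin subunit, were lower. Itga4 was 41.7 and 51.1 against 285.7, 626.8 and 147.8 in vehicle and 18.5 against 341.7, 500.2 and 269.5 in ibrutinib. Few cell cycle genes were called. Of 25 mitotic genes 3 were lower (Bub1b, Ccnb1 and Aurkb) and none higher, and of 25 G1/S genes 1 was higher, Chaf1b, and none lower. That is 12% lower and 4% higher, against 8.91% and 9.12% of all genes. Mki67 was 75 and 111.1 against 205.8, 276.9 and 61.9 in vehicle, with overlap. Of 20 glycolysis genes 2 were higher (Pfkm and Pdk1) and 2 lower (Hk2 and Aldoc), which is 10% each way and close to the share of all genes. Hk2 was 5 and 4.1 against 33.1, 46.1 and 38.9 in vehicle and 1.5 against 6.5, 7.5 and 8.4 in ibrutinib.

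Over all genes, leaving out receptor segments and unnamed genes, the 10 largest higher differences, 5.70 to 4.80, included Klrc1, Klra13-ps, Ifit3, Klra7, F2r, Atp8b4, Ly6c2, Tnfsf8 and Eomes. F2r, a thrombin receptor, was 499.5 and 487.2 against 4.9, 6.4 and 4.8 in vehicle and 294 against 62.4, 26.7 and 16.9 in ibrutinib. Atp8b4, a lipid flippase, reached 1084.6 and 1305.1 in vehicle and 760.3 in ibrutinib against at most 25.3 and 201.1. The Klra genes and the pseudogene Klra13-ps are near copies of each other, so their separate values are uncertain. The 10 largest lower differences were Fras1, Tmc3, Chst3, S1pr3, Sel1l3, Hpse, Ly86, AF067061, Rgl1 and Sspn, with -7.11 to -4.81. Fras1, which encodes an extracellular matrix protein, was 1.4 and 1.6 against 210.1, 643 and 267.2 in vehicle and 0.8 against 215.6, 689.6 and 125.4 in ibrutinib. Ly86, the partner of the B-cell surface protein Cd180, was 27.3 and 28.8 against 1001.4, 836 and 878.4 in vehicle and 0.9 against 17, 45.4 and 132.9 in ibrutinib.

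Markers of other spleen cells were examined across both classes. Of 15 macrophage and monocyte genes 7 were lower and none higher (median -1.59), and their summed value was 647.8 to 769.9 in Btk-low and 664.1 to 1940.3 in Btk-high libraries in vehicle, and 623.4 against 1254.9 to 1981.8 in ibrutinib. Lyz2, a lysozyme of these cells, was 11.4 and 13.3 against 116.1, 24.4 and 66.3 in vehicle and 5.8 against 188.1, 211.5 and 224.1 in ibrutinib. Of 9 plasma-cell genes 5 were lower (55.6%, against 8.91% of all genes). Their sums were 103.4 to 103.7 against 400.1 to 473 in vehicle and 81.5 against 315.8 to 525.2 in ibrutinib. None of 12 granulocyte genes and none of 13 erythroid genes was called, which requires separation in both tables. In ibrutinib, with 1 Btk-low library, the list medians were lower than in vehicle. They were -2.23 against 0.65 for granulocyte, -1.63 against -0.18 for erythroid and -2.35 against -1.10 for macrophage and monocyte genes. The granulocyte sum in ibrutinib ran from 24.3 to 1397.9 among Btk-high libraries, highest in replicate 3, against 26.7 in the Btk-low library. Of 9 dendritic-cell genes 2 were higher (Itgax and Bst2) and 1 lower, of 8 megakaryocyte genes 1 was lower, and of 8 stromal and endothelial genes 2 were lower. In these short lists 1 gene is 11.1% or 12.5%, against 9.12% of all genes called higher and 8.91% lower. Such counts are too small to be read as results about these cells. The part of these cells in the differences between classes was not tested.

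The 6 Eμ-TCL1 libraries, which the split did not use, had Btk between 44.4 and 95.4 and Trbv17 of at most 2.6. The median log2(value + 1) over the T-cell lists was 3.14 to 5.11 in these libraries, 3.56 to 6.01 in Btk-high and 7.02 to 7.75 in Btk-low libraries. Over the B-cell lists the medians were 5.63 to 8.24, 5.42 to 8.13 and 2.67 to 4.60. Within each table the Btk-low libraries lay outside the range of both other groups in these 2 medians. Eμ-TCL1 replicate 4 also had a leading β-chain V gene, Trbv12-2, with 92.9% of a summed Trbv value of 25.4 in vehicle and 92.0% of 27.4 in ibrutinib, against sums of 434.2 and 447.5 in the Btk-low libraries in vehicle.

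Vehicle replicates 1 and 2, the Btk-low libraries of 1 table, differed most in the following genes. Yam1 was 173268 in replicate 2 and 1448.7 in replicate 1, Lars2 16381.6 and 34.1, n-R5s193 1235.7 and 22, n-R5s115 86.3 and 4, and mt-Nd2 1442.1 and 131.8. The small RNA genes Mir1949, Snora15, Rny1, Snora62 and Snora78 were higher in replicate 1, with log2 differences of 2.51 to 3.01. With 1 library a side these are descriptions of 2 libraries. Without vehicle replicate 2, 1402 genes were called higher and 1438 lower, and the median difference of the T-cell lists was 2.27 in place of 2.81.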

How the data were processed

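RNA from splenic lymphocytes of both genotypes, cultured with vehicle or ibrutinib, was sequenced on an Illumina platform. Per the submitters' processing notes, the tools were TopHat2 2.0.12, SAMtools 0.1.19, HTSeq and edgeR, and genes came from GENCODE M2 on GRCm38. The authors counted reads per gene, removed genes with low values, normalized with edgeR and deposited the result as signal on a CPM scale rounded to 0.1, in 1 table per treatment. Neither read counts nor depth can be recovered, so no count model was run. Columns were assigned to groups and replicates from the sample titles.

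Classes were set by Btk under 10 among the 9 mutant libraries, and genes were joined by identifier over both tables. Differences of log2(value + 1) were fitted by least squares with the table as a term, and no test was run because a measured value chose the classes. SDs are pooled within class and table. Libraries and gene lists were chosen with earlier results of these data known. The genes named are the 6 markers, up to 5 genes per list with the largest differences and all genes called against their list's direction, other list genes given by value as contrasts, the 10 leading genes per direction with a mean of at least 5 in the higher class, the 5 leading genes per direction between vehicle replicates 1 and 2 with at least 5 in the higher library, and the leading V genes. Some genes that this rule names are not reported here. Gene positions and V sequences were read from GENCODE M21 on GRCm38, matched by identifier, and promoters from RefSeq by symbol. All calculations used Python 3.11.15 with pandas 2.3.3 and numpy 2.4.6, figures matplotlib 3.10.9, and the comparison was tested on simulated data. Alternatives were pseudocounts of 0.1 and 5, a mean of at least 5, 2 other scalings, each table alone, Btk thresholds of 5 and 20, a split on Cd3 against Cd79, V genes with a value of at least 1, and each library left out.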

Additional observations from a re-analysis of the deposited data

Results flagged for a closer look

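Within the labelled groups, 76 sets of values (the markers, the leading genes, the genes that differed between vehicle replicates 1 and 2, and the medians of the T- and B-cell lists) were examined for a library that stands apart by Dixon's criterion, and 12 stood out. Chance flags about 1 in 20 sets, but the markers and leading genes were chosen because the same libraries differ, so the number of sets that stood out follows from the choice. In ibrutinib, replicate 1, the Btk-low library, stood above the other 3 for Trbv17 (245.7 against 3.3 to 25.4), Klrc1 (137.7 against 3.9 to 17.8), Klra13-ps (79.5 against 1.9 to 12), Ifit3 (95.6 against 3.3 to 14.6), Klra7 (49.1 against 1.9 to 8.1), F2r (294 against 16.9 to 62.4) and Tnfsf8 (247.2 against 9.1 to 43.8). In vehicle, replicate 2 stood above the other 4 for Lars2 (16381.6 against 34.1 to 129.2), Yam1 (173268 against 969.6 to 2637.9), n-R5s193 (1235.7 against 4 to 22), n-R5s115 (86.3 against 1.2 to 4.5) and mt-Nd2 (1442.1 against 131.8 to 351.6).

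Of 436 list and named genes, 21 (4.82%) separated the classes in opposite directions in the 2 tables, against 772 of all 15869 genes (4.86%), so the count is at the level of all genes, and the difference between the tables was not tested. Higher in Btk-low libraries in vehicle and lower in ibrutinib were Il7r (1.59 and -1.79), Tigit (0.54 and -2.10), Fcgr3 (0.34 and -2.43), Tnfrsf9 (0.57 and -1.51), Slc16a3 (0.59 and -1.32), Bcl2l14 (1.31 and -1.06), Prtn3 (0.14 and -1.05), Trp53inp1 (1.56 and -0.46), Erg (0.18 and -0.45), Itga2b (0.61 and -0.40), Il2ra (1.05 and -0.37) and Tnfrsf4 (0.68 and -0.070). Lower in vehicle and higher in ibrutinib were Pik3ap1 (-1.32 and 0.56), Mcm5 (-0.73 and 0.51), Fen1 (-0.61 and 0.51), Pold1 (-0.67 and 0.43), Pcna (-0.56 and 0.37), Gtse1 (-0.88 and 0.25), Cdk1 (-1.41 and 0.23), Mcl1 (-0.96 and 0.18) and Gins2 (-0.92 and 0.13). The ibrutinib side of each rests on 1 Btk-low library.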

How the results depend on the processing

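No paired analysis was possible because no replicate number lies in both classes, replicate 2 has no ibrutinib library and the differences come from no test. Btk thresholds of 5 and 20 gave the same split. The counts of genes moved by more than 1.5 times for lower genes with a pseudocount of 5 (847) and with the split on Cd3 against Cd79, which puts ibrutinib replicate 3 with the Btk-low libraries (930), and for higher genes in the ibrutinib table alone (883). The median difference of the T-cell lists moved to 2.51 with a pseudocount of 5, 4.0 in the vehicle table alone and 1.01 in the ibrutinib table alone, and that of the B-cell lists to -2.89 with the split on Cd3 against Cd79. Leaving out each library in turn gave 1353 to 2066 higher genes, 1397 to 1870 lower genes, medians of 2.27 to 4.0 for the T-cell lists and -3.49 to -3.28 for the B-cell lists. Without ibrutinib replicate 1 only the vehicle table remains. Among the markers, the leading genes and the genes called against their list's direction, no called gene reversed its direction. A call requires separation on the same side in each table. Only the 2 other scalings and the split on Cd3 against Cd79 could therefore have reversed it, and for the other alternatives the outcome was fixed in advance. Counting V genes with a value of at least 1 raised the leading Ighv share in the 3 Btk-low libraries to 83.2%, 81.4% and 78.4% and the Igkv share to 88.9%, 84.2% and 84.3%, the Trbv share to 22.4% and 57.1% in vehicle replicates 3 and 4, and the Ighv share to 77.6% in ibrutinib replicate 3. The share of higher genes among all calls was 50.6% and 36.2% in the ibrutinib table alone. Depth could not be judged from these values.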

Other observations

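Of the 601 genes listed only in the vehicle table, 4 were higher and 23 lower in the Btk-low libraries by the same rule within that table. Of the 559 listed only in the other, for ibrutinib, 1 was higher and 6 lower. These shares are smaller than those of the genes in both tables, 13.0% and 11.8% in vehicle and 5.56% and 9.80% in ibrutinib. Klhl30 was 3.9 to 4.7 in the Btk-low libraries in vehicle and listed at 0 in Btk-high libraries, and Ociad2, the largest in the other direction, was 0.2 in both Btk-low libraries and 7.1 to 13.9 in Btk-high libraries. In ibrutinib Trav19 was listed at 0 in the Btk-low library and was 0.6 to 2.3 in Btk-high libraries. These genes were chosen after their values were seen.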
